A study of Mus musculus with 30 samples.

Results

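The major histocompatibility complex (MHC) and antigen presentation genes were examined in the lung and terminal ileum of TL1A transgenic mice. Members were chosen by symbol: every gene whose symbol begins with H2-, together with Ciita, Cd74, B2m, Tap1, Tap2, Tapbp, Psmb8, Psmb9, Nlrc5, Cd1d1 and Mr1. This gave 55 genes of the 24062 in the count tables. All mice had the C57bl/6 background. TL1A belongs to the tumour necrosis factor cytokines and acts on T cells and innate lymphoid cells. Mem mice overexpressed TL1A Delta 69-93, a form restricted to the membrane, whereas in Mem+Sol mice a membrane-bound and a soluble form were both overexpressed. The control mice are labelled WT, although their label also names TL1A under the CD2 promoter, a promoter of T lymphocytes, so whether these mice carried a transgene cannot be told from the labels. The labels state neither ages nor the promoters of the other transgenes. In the ileum there were 5 libraries of WT, 5 of Mem and 6 of Mem+Sol, and in the lung 5 of WT, 5 of Mem and 4 of Mem+Sol. Sex was uneven. Males and females were 4 and 1 in WT ileum, 3 and 2 in Mem ileum and 3 and 3 in Mem+Sol ileum. In the lung they were 3 and 2 in WT, 2 and 3 in Mem and 1 and 3 in Mem+Sol. Ileum WT replicate 1 was the only female of its group and lung Mem+Sol replicate 4 the only male. Leaving out either library leaves a group of 1 sex. Whether each library is a separate animal is not stated, so the spread behind each p-value is that between samples and may be technical.

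MHC class I molecules display peptides made in the cytosol to CD8 T cells. Their heavy chain pairs with B2m, proteasome subunits such as Psmb8 and Psmb9 cut the peptides, and the Tap1 and Tap2 transporter and its partner Tapbp load them. MHC class II molecules display peptides from engulfed material to CD4 T cells. In them the chains encoded by H2-Aa, H2-Ab1 and H2-Eb1 travel with the invariant chain Cd74, and H2-DM exchanges its remnant for peptide while H2-O restrains H2-DM. Class II genes are switched on by the coactivator Ciita, class I genes by its relative Nlrc5, and both respond to interferon gamma. Dendritic cells, B cells and macrophages carry most class II, and some epithelial cells, as in the gut, carry it too. The non-classical class I genes of the Q, T and M regions have narrower tasks, such as TL antigen, encoded by H2-T3, on the epithelium of the small intestine.

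Totals per library ran from 4295039 to 36133187 counts in the ileum, where the WT libraries were the shallower group (at most 13226790), and from 22259203 to 39089383 in the lung. The tissue labels fitted the defining markers. The summed level of 6 alveolar genes was 19860 to 34010 CPM (counts scaled to the same total in each library) in the lung and 43.4 to 120.8 CPM in the ileum, and that of 6 enterocyte genes was 4576 to 25670 CPM in the ileum and 0.529 to 3.35 CPM in the lung. Levels in the 2 tissues were scaled separately. All ileum libraries were sequenced in batch 3 and all lung libraries in batch 1 or 2, so tissue and batch cannot be told apart for levels. One library stood apart among its group: ileum Mem replicate 1 was the highest of the 5 Mem libraries, far from the others by Dixon's criterion, for 16 of the 27 members named below, and the values of Mem ileum without it are given beside those with it.

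Of the 55 members, 48 had counts in the ileum and 46 in the lung, 7 were at 0 in every library, and 37 passed the filter on low counts in each tissue, 35 of them the same. The 7 without any count were H2-L, H2-M10.5, H2-M11, H2-Q6, H2-Q7, H2-Q9 and H2-T9. H2-Ea-ps, a class II alpha chain pseudogene in C57BL/6 mice, had 0 or 1 count in each ileum library and 0 to 4 counts in each lung library. Sequence sharing is a limit of the counts for this family. Of the 50-base windows in the transcripts of H2-Q7 26.5% also occurred in another gene's transcripts, as did 35% for H2-Q6, 53.5% for H2-T22, 50.4% for H2-T10 and 36.4% for H2-Q4 and H2-Q5, so that counts of these genes are uncertain. For H2-T3, H2-M2 and H2-M3 the shares were 0.9, 1.6 and 0.6%, for H2-K1 and H2-D1 9.6 and 12.8%, and for H2-Ab1, H2-Eb1, Cd74 and B2m 0.0%. Members called below had larger shares in part: H2-DMb1 22.7%, H2-Q10 19.1%, H2-Q2 16.1%, H2-Q1 15.0% and H2-T23 14.5%. Tapbp had 23.2%. The limit holds for the counts of these genes too.

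The promoters of class II genes carry short shared elements, an X box and a Y box, at which the complex that recruits Ciita and the factor NF-Y assemble. Stretches before the start of 4 class II genes are printed to show which letters called and uncalled genes share. H2-Aa and H2-Eb1 were called higher in the lung, and H2-Eb2 and H2-Ob did not pass the edgeR test over both batches. Capitals mark the Y box letters TGATTGG and the X box letters AGCAAC where they occur. The sequences are RefSeq promoters of GRCm38.p6, printed from 5′ to 3′ on the strand of the gene.
H2-Aa, chr17:34287857-34287918, minus strand: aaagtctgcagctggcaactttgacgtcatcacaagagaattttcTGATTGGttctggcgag
H2-Eb1, chr17:34305761-34305822, plus strand: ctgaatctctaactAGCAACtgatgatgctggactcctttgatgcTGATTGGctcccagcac
H2-Eb2, chr17:34325528-34325589, plus strand: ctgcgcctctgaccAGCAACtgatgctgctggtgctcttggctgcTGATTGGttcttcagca
H2-Ob, chr17:34238801-34238862, plus strand: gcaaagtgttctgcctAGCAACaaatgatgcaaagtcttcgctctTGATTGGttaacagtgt

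Promoters of 300 bases, 250 of them before the gene start, were found for 38 members. Searched on both strands, TGATTGG occurred in 7.82% and AGCAAC in 14.8% of the 32851 promoters in the table. Of 8 class II genes with a promoter there, 7 held TGATTGG, and 4 held it with AGCAAC lying 20 to 40 bases before it on the same strand. These 4 were H2-Eb1, H2-Eb2, H2-Oa and H2-Ob. That spacing occurred in 24 promoters in all, 0.073%. Of 28 class I and class I loading genes, 17 held TGATTGG and 0 held the spaced pair. The pair occurred in H2-Eb1, which rose in the lung, and in H2-Eb2, H2-Oa and H2-Ob, which edgeR did not call over both batches. H2-Aa rose without this exact pair, but its printed stretch holds GGCAAC before the Y box letters, unlike AGCAAC only in the first letter. A search for exact letters thus does not show that H2-Aa lacks an X box. In batch 2 alone the order in Mem+Sol lungs was the other way, with H2-Eb2, H2-Oa and H2-Ob called and H2-Eb1 not (adjusted p = 0.151). That fit held 2 libraries a group and no sex term, and its calls among all genes are not given here. By DESeq2 over both batches H2-Eb2 (log2 0.83, adjusted p = 0.0104) and H2-Oa (0.78, adjusted p = 0.0102) passed in Mem+Sol lungs. The edgeR value of H2-Eb1 there was 0.66, so the calls do not order these genes by response. These are matches of letters and not shown to be sites.

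In WT lung the order of levels, set per kilobase of exon (RPKM, which is CPM divided by the exon length), began with B2m at 1376 ± 177 (SD, n = 5), Cd74 at 790 ± 85.3 and H2-K1 at 353 ± 58.7. The class II chains H2-Eb1, H2-Ab1 and H2-Aa followed at 202 ± 30.2, 178 ± 26.9 and 122 ± 9.13 RPKM, with H2-D1 at 144 ± 14.8 among them. Differences between genes within the same libraries were not tested. WT ileum had the same leading genes, B2m at 1754 ± 411, Cd74 at 925 ± 542 and H2-K1 at 553 ± 112 RPKM, the latter 2 within each other's spread. Several non-classical genes had unlike levels in the tissues, which were not tested since tissue and batch coincide. H2-T3 stood at 61.1 ± 14.5 RPKM in WT ileum and 0.0846 ± 0.0352 in WT lung, H2-Q2 at 75.1 ± 26.4 and 1.59 ± 0.314, H2-Q1 at 16.8 ± 6.39 and 0.664 ± 0.204, and H2-Bl at 9.28 ± 5.49 and 0.120 ± 0.0654. Mr1, which presents vitamin B metabolites, had the opposite order, with 0.447 ± 0.185 RPKM in the ileum and 7.26 ± 0.746 in the lung.

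**Figure D1:**
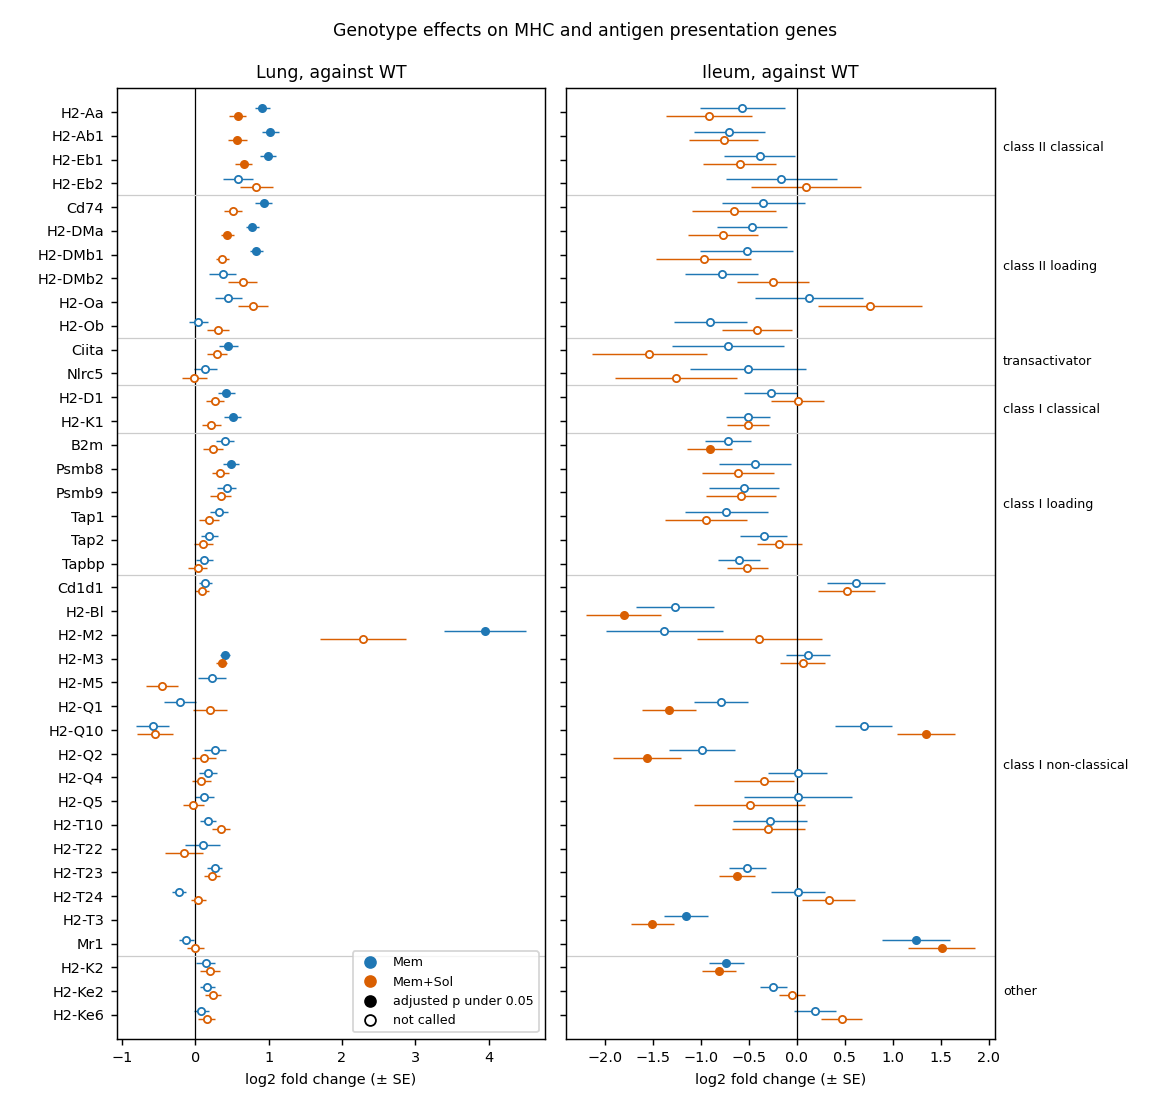
Log2 fold changes against WT (horizontal axis, ± SE) of the 39 members tested in at least 1 tissue, lung on the left and ileum on the right, for Mem and Mem+Sol. Filled points passed an adjusted p under 0.05. In the lung class II genes lie to the right of 0, and in the ileum most members lie to the left with wide errors.

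In Mem lungs the class II genes and part of the class I genes were higher than in WT. At a Benjamini-Hochberg adjusted p under 0.05 from edgeR's quasi-likelihood fit, 12 of 37 members rose and 0 fell, beside 9.46% of all 15885 genes called, 6.41% higher and 3.05% lower. The median log2 fold change of the 37 members was 0.27 and that of all tested genes -0.02. Of the 10 class II chain and loading genes tested 6 rose, all 10 lay above 0, and their median was 0.81. For 8 members every Mem library lay above every WT library and for 0 below, and 5.02% of all genes were apart in either direction. Since RNA of a lung lobe or an ileum piece was sequenced, a change in cell numbers and in RNA per cell cannot be told apart, here and below.

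H2-Ab1 (chromosome 17, 34257689 to 34269419, GRCm38), a class II beta chain, stood at 374.5, 438.5, 430.5, 489 and 558 CPM in WT and 593, 861, 1065, 1332 and 1057 CPM in Mem lungs. Every Mem library lay above every WT library. The log2 fold change was 1.02 ± 0.12 (SE, adjusted p = 0.00018). H2-Eb1 (chromosome 17, 34305867 to 34316674), the other beta chain, was at 319.5, 374, 365.5, 435 and 467 CPM in WT and 503, 771.5, 853, 1104 and 872 CPM in Mem. These groups did not overlap either, and the log2 fold change was 0.99 ± 0.11 (adjusted p = 0.00018). H2-Aa (chromosome 17, 34282744 to 34287823), an alpha chain, went from 426, 507, 430.5, 469 and 483 CPM to 649, 942, 896, 1194 and 872.5 CPM, a log2 fold change of 0.92 ± 0.11 (adjusted p = 0.00023). Their relative H2-Eb2, whose product is less well known, stood at 8.53 ± 2.35 and 11.95 ± 2.36 CPM and did not pass (log2 0.58 ± 0.20, adjusted p = 0.091).

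The genes that escort and load class II were higher as well. Cd74, the invariant chain, was at 1140, 1323, 1243, 1505 and 1418 CPM in WT and 1860, 2769, 2584, 3356 and 2640 CPM in Mem lungs. No library overlapped, and the log2 fold change was 0.94 ± 0.12 (adjusted p = 0.00033). H2-DMa and H2-DMb1 encode the chains of the peptide exchanger. H2-DMa was at 55.8, 62.8, 63.2, 72.4 and 74.7 CPM in WT and 80.2, 107.6, 121, 139 and 139 CPM in Mem (log2 0.78 ± 0.09, adjusted p = 0.00018). H2-DMb1 had means of 42.2 ± 6.47 CPM and 77.9 ± 10.7 CPM (log2 0.84 ± 0.08, adjusted p = 0.00012). Neither gene's groups overlapped. H2-DMb2 (0.38 ± 0.18, adjusted p = 0.20) and H2-Oa (0.45 ± 0.19, adjusted p = 0.14) were not called. H2-Ob, the beta chain of the H2-DM inhibitor, which B cells carry, had means of 65.3 ± 16.1 CPM (WT) and 64.1 ± 9.86 CPM (Mem), a log2 value near 0 (0.04 ± 0.14, adjusted p = 0.86). Of 8 B cell markers 0 were called (summed level 199.6 to 490 CPM in WT and 193 to 333 in Mem).

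**Figure D2:**
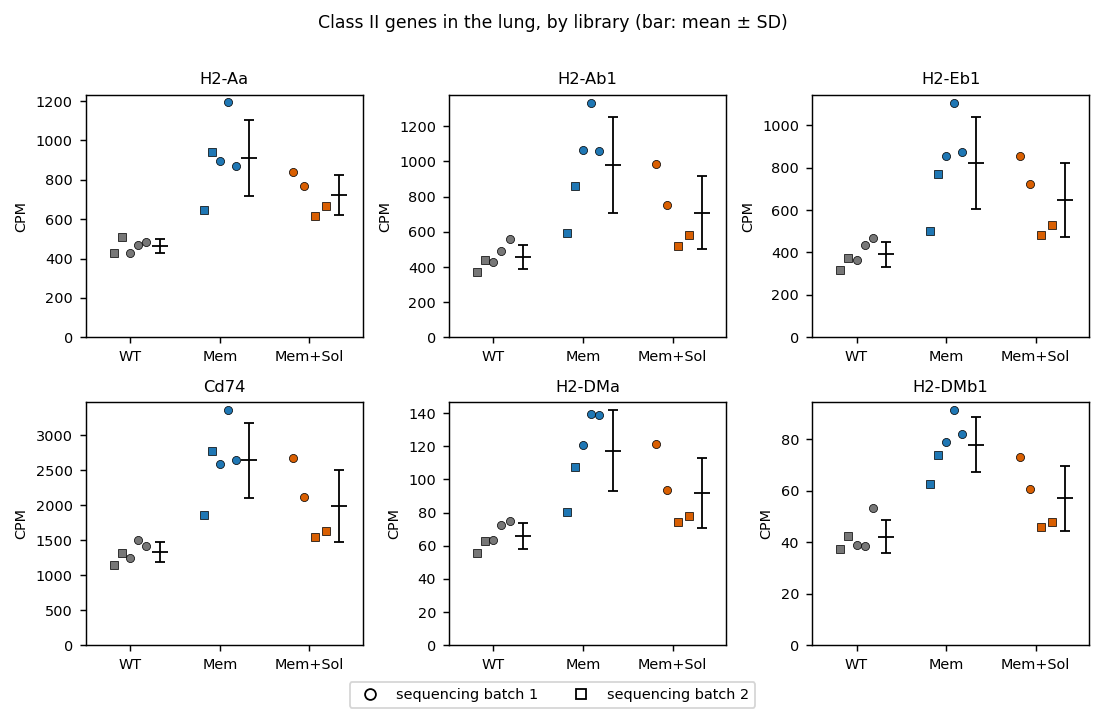
Levels in CPM (vertical axis, from 0) of 6 class II genes in each lung library, by genotype, with circles for sequencing batch 1, squares for batch 2 and bars for the mean ± SD. All Mem libraries lie above all WT libraries for each gene. The Mem+Sol means lie between those of WT and Mem, and the Mem+Sol libraries of batch 2 are lower than those of batch 1.

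The class II values were above 0 in both sequencing batches and larger in batch 1. In batch 1, fitted with sex, and batch 2, fitted without it, H2-Ab1 gave log2 values of 1.18 and 0.84, H2-Eb1 1.11 and 0.88, and H2-Aa 1.07 and 0.77. Cd74 gave 1.02 and 0.91, H2-DMa 0.89 and 0.66, and H2-DMb1 0.89 and 0.77. All 6 were called in batch 1, and in batch 2, with 2 libraries a group, 0 members and 5 of all genes were. The 6 calls held without any 1 of the 10 libraries.

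Ciita, the class II coactivator, was at 46.3, 60.6, 59.6, 47.6 and 50.8 CPM in WT and 80.1, 93.1, 58.3, 84.0 and 56.3 CPM in Mem lungs. The groups overlapped, with Mem replicates 3 and 5 at WT levels, and the log2 fold change was 0.45 ± 0.13 (adjusted p = 0.040, 0.31 and 0.70 in the batches). The Ciita call was lost without any 1 of Mem replicates 1 to 4 or WT replicates 1, 2, 4 and 5 (adjusted p 0.0592 to 0.115), with no batch term (0.14) and in either batch alone (0.32 and 0.128). Nlrc5, the class I coactivator, stood at 48.0 ± 13.5 and 55.2 ± 13.4 CPM and did not pass (log2 0.14 ± 0.16, adjusted p = 0.61).

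Both classical class I heavy chains rose in Mem lungs, with smaller values than the 6 class II genes. H2-K1 (chromosome 17, 33996017 to 34000347) stood at 810, 942, 1026, 1174 and 1237 CPM in WT and 1085, 1223, 1629, 2191 and 1570 CPM in Mem. The lowest 2 Mem libraries lay within the WT range, and the log2 fold change was 0.51 ± 0.12 (adjusted p = 0.015, 0.61 and 0.40 in the batches). The H2-K1 call was lost without WT replicate 5 (adjusted p = 0.0627), with no batch term (0.281) and in either batch alone (0.0768 and 0.182). H2-D1 had means of 370 ± 38.0 CPM in WT and 509 ± 83.0 CPM in Mem, and its log2 fold change was 0.42 ± 0.11 (adjusted p = 0.032), 0.55 in batch 1 and 0.32 in batch 2. This call was lost without any 1 of Mem replicates 2 to 4 or WT replicates 3 and 5 (adjusted p 0.0718 to 0.123), with no batch term (0.192) and in either batch alone (0.0982 and 0.247). Counts of both genes with H2-L summed gave a log2 value of 0.49 ± 0.12 (adjusted p = 0.018).

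Of the 6 class I loading genes 1 rose, and all 6 lay above 0 with a median of 0.37. Psmb8, a subunit of the immunoproteasome, stood at 61.8, 69.9, 83.2, 100.9 and 89.9 CPM in WT and 81.4, 100.5, 136, 131 and 126 CPM in Mem. These groups overlapped, the log2 fold change was 0.49 ± 0.10 (adjusted p = 0.0099), and the call was lost without Mem replicate 3 (adjusted p = 0.0509), with no batch term (0.254) and in either batch alone (0.0769 and 0.159). Its partner Psmb9 (log2 0.43 ± 0.13, adjusted p = 0.052) and B2m (log2 0.41 ± 0.12, adjusted p = 0.055) came close to the threshold. B2m stood at 1088, 1306, 1040, 1096 and 1385 CPM in WT and at 1432, 1883, 1549, 1734 and 1504 CPM in Mem, without overlap. Tap1 (0.33 ± 0.12), Tap2 (0.19 ± 0.12) and Tapbp (0.12 ± 0.12) did not pass, with adjusted p of 0.11, 0.31 and 0.53.

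The largest change of any member in the lung was in H2-M2 (chromosome 17, 37480851 to 37483552), a non-classical class I gene at the far end of the complex. It stood at 0.527, 0.958, 0.551, 0.626 and 1.74 CPM in WT and 3.11, 19.7, 9.47, 44.9 and 12.4 CPM in Mem lungs. Every Mem library exceeded every WT library, but the Mem libraries differed widely from each other, with replicate 4 highest and replicate 1 lowest. The log2 fold change was 3.95 ± 0.55 (adjusted p = 0.00096), 4.04 in batch 1 and 3.92 in batch 2. Leaving out single libraries gave log2 values from 3.54 to 4.22, all called. H2-M3, which presents formylated bacterial peptides, rose by 0.41 ± 0.07 (adjusted p = 0.0026), from a mean of 22.4 ± 4.75 CPM to 29.6 ± 5.54 CPM, with 0.41 in batch 1 and 0.46 in batch 2. The H2-M3 call was lost in either batch alone (adjusted p = 0.0605 and 0.131) and with no batch term (0.404). The other 12 non-classical members tested, Cd1d1 and Mr1 among them, were not called. Cd1d1, which presents lipids to NKT cells, was at 12.4 ± 1.12 and 13.7 ± 2.39 CPM (log2 0.14 ± 0.09, adjusted p = 0.34), and Mr1 at 43.4 ± 4.46 and 39.5 ± 8.02 CPM (log2 -0.12 ± 0.10, adjusted p = 0.46).

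**Figure D3:**
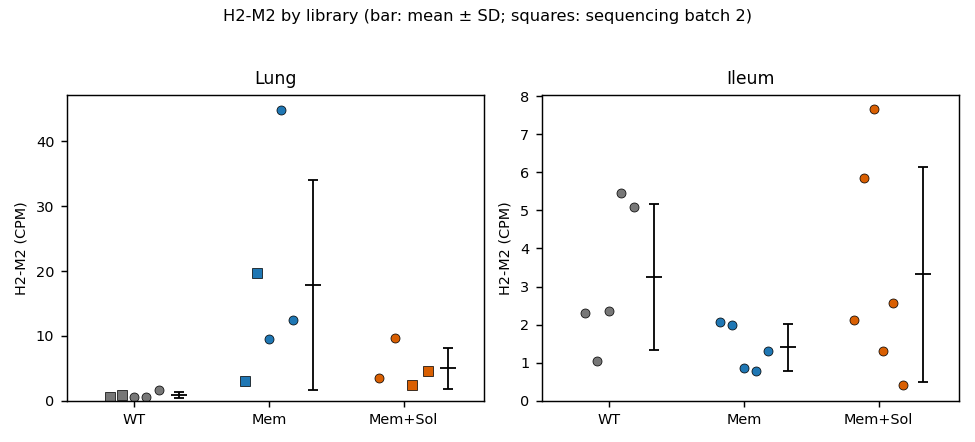
Level of H2-M2 in CPM (vertical axes, from 0, on unlike scales) in each lung and ileum library by genotype, with bars for the mean ± SD and squares for sequencing batch 2. The 5 Mem lung libraries sit between 3.11 and 44.9 CPM above WT libraries of at most 1.74 CPM, while the ileum groups overlap.

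Of the companion lists, part of the genes were higher in Mem lungs too. Of 8 genes that process antigen for class II 5 rose and 0 fell, among them the lysosomal protease Ctss (log2 1.16 ± 0.18, adjusted p = 0.0012) and the thiol reductase Ifi30 (1.01 ± 0.15, adjusted p = 0.00095). Of 6 costimulatory genes 3 rose, Cd86 (1.10 ± 0.18), Cd80 (1.06 ± 0.26) and Pdcd1lg2 (1.89 ± 0.39). Of 15 genes induced by interferon gamma 3 rose, the ubiquitin-like Ubd (4.39 ± 0.49), Cxcl9 (3.02 ± 0.54) and Cxcl10 (2.18 ± 0.29), and of 17 regulators of MHC genes 3 rose, Irf8 (0.39 ± 0.09), Socs1 (0.83 ± 0.20) and Ifngr2 (0.32 ± 0.09). The rest of both lists did not pass. The Gbp, Irgm, Igtp and Iigp1 genes lay between -0.22 and 0.26. The regulators Rfx5, Rfxap, Rfxank, Nfya, Nfyb and Nfyc lay between -0.04 and 0.08. The 10 further genes of class I processing had 0 called and a median of 0.20. Ifng itself stood at 0.312 ± 0.158 CPM in WT and 0.342 ± 0.104 CPM in Mem lungs.

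Markers of several cell types moved in the same comparison. Of 8 dendritic cell markers 5 rose and 0 fell, for example Cd209a (log2 1.43 ± 0.15) and Flt3 (1.35 ± 0.19). Zbtb46 (-0.22 ± 0.11) and Clec9a (-0.13 ± 0.09) lay below 0 and were not called. The summed level of the 8 markers was 189 to 211 CPM in WT and 244 to 419 CPM in Mem lungs. Of 8 macrophage markers 4 rose and 0 fell, with sums of 385 to 421 CPM in WT and 482 to 772 CPM in Mem. Of 7 tested T cell markers 5 rose, Cd4 among them (1.18 ± 0.15), while Cd8a (-0.27 ± 0.13) and Cd8b1 (-0.29 ± 0.17) lay below 0 and were not called. Of 5 endothelial markers 2 fell, Tek (-0.49 ± 0.08) and Kdr (-0.44 ± 0.11), all 5 lay below 0, and the sums were 3534 to 3800 CPM in WT and 2550 to 3594 CPM in Mem. B cells, which carry class II as well, had 0 of 8 markers called, as given above. Of 6 alveolar markers 1 rose, Sftpa1 (0.48 ± 0.11, adjusted p = 0.018), and 5 lay above 0. Of 6 general epithelial markers 0 were called and all 6 lay above 0, with a median of 0.13. No marker of these lists was at 0 in a lung library. The part of these cells in the class II result was not tested.

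In Mem+Sol lungs fewer members passed, and the calls were fragile. Of 37 members 5 rose and 0 fell, where 0.844% of all genes were called, 0.523% higher and 0.321% lower. For 5 members the Mem+Sol libraries all lay above WT and for 0 below, where 3.63% of all genes were apart. The 5 called were H2-Eb1, H2-Aa, H2-Ab1, H2-DMa and H2-M3, so that 4 of the 10 class II genes rose, and all 10 again lay above 0 with a median of 0.58. The median of all 37 members was 0.24 and that of all genes 0.01.

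H2-Eb1 stood at 856, 721, 481 and 528 CPM in Mem+Sol lungs, above all 5 WT libraries (log2 0.66 ± 0.12, adjusted p = 0.021). Its values were 0.76 in batch 1 and 0.54 in batch 2. H2-Aa was at 842, 770, 616 and 666.5 CPM, likewise without overlap (log2 0.58 ± 0.12, adjusted p = 0.034), with 0.70 in batch 1 and 0.46 in batch 2. H2-Ab1 was at 984, 754, 520 and 583 CPM (log2 0.58 ± 0.12, adjusted p = 0.047), with 0.68 in batch 1 and 0.44 in batch 2, and the lower 1 of its batch 2 libraries overlapped the highest WT library. Replicates 1 and 2, from batch 1, were the higher pair for each of these genes. H2-DMa was at 91.8 ± 21.3 CPM (log2 0.44 ± 0.09, adjusted p = 0.044) and H2-M3 at 28.02 ± 7.54 CPM (log2 0.36 ± 0.08, adjusted p = 0.042). H2-Aa, H2-Ab1, H2-DMa and H2-M3 were each lost without Mem+Sol replicate 1 or 4 or any 1 WT library, with adjusted p up to 0.304, 0.339, 0.333 and 0.278, and H2-Eb1 without Mem+Sol replicate 4 or WT replicate 2 or 5 (0.0763 to 0.243).

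Cd74 at 2669, 2113, 1546 and 1635 CPM lay above every WT library without passing (log2 0.52 ± 0.13, adjusted p = 0.065), as did H2-M2 at 3.51, 9.63, 2.40 and 4.52 CPM (log2 2.29 ± 0.59, adjusted p = 0.083). H2-DMb1 (0.37 ± 0.09, adjusted p = 0.067), Ciita (0.30 ± 0.14, adjusted p = 0.30), Nlrc5 (-0.01 ± 0.17, adjusted p = 0.97), H2-K1 (0.22 ± 0.13, adjusted p = 0.41) and H2-D1 (0.27 ± 0.12, adjusted p = 0.28) did not pass. Nor did Psmb8 (0.34 ± 0.11, adjusted p = 0.16), Psmb9 (0.35 ± 0.14, adjusted p = 0.24), B2m (0.24 ± 0.14, adjusted p = 0.40), Tap1 (0.19 ± 0.13, adjusted p = 0.51), Tap2 (0.11 ± 0.13, adjusted p = 0.69), Tapbp (0.04 ± 0.13, adjusted p = 0.91), Cd1d1 (0.09 ± 0.10, adjusted p = 0.65) or Mr1 (0.00 ± 0.11, adjusted p = 0.99). The count of 5 fell to 0 without Mem+Sol replicate 4, WT replicate 2 or WT replicate 5, to 1 without WT replicate 1 or 3 and to 2 without Mem+Sol replicate 1 or WT replicate 4, and it was 8 without Mem+Sol replicate 2. In batch 2 alone other members passed: H2-Oa (log2 1.018, adjusted p = 0.0138), H2-DMb2 (0.97, adjusted p = 0.0162), H2-Ob (0.50, adjusted p = 0.0161) and H2-Eb2 (1.01, adjusted p = 0.0397), and the 5 did not (adjusted p 0.0839 to 0.179). In batch 1 alone 0 members passed. Each batch held 2 Mem+Sol libraries, batch 2 held 2 WT libraries, and batch 2 was fitted without sex. Calls among all genes under these fits and omissions are not given here, so the counts do not set members apart from other genes. Beside these values, 1 of 8 dendritic cell markers rose (sums of 228 to 296 CPM), 0 of 8 macrophage markers (402.5 to 539 CPM) and 0 of 8 B cell markers (252 to 602.5 CPM), and the part of these cells was not tested.

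Between the transgenic genotypes 1 of 37 lung members was called, where 2.23% of all genes were, 0.862% higher and 1.37% lower in Mem+Sol. For 0 members were these groups apart, and 3.66% of all genes were. H2-DMb1 was lower in Mem+Sol, at 73.3, 60.8, 46.1 and 48.0 CPM against 62.5, 74.0, 79.2, 91.6 and 82.1 CPM in Mem (log2 -0.47 ± 0.09, adjusted p = 0.024), with -0.45 in batch 1 and -0.53 in batch 2. The groups overlapped, and the call was lost without Mem replicate 2 (adjusted p = 0.0829) or Mem+Sol replicate 3 (adjusted p = 0.0728). In the same comparison the dendritic cell marker Itgax (-0.85 ± 0.20, adjusted p = 0.046), the class II processing protease Lgmn (-0.41 ± 0.10, adjusted p = 0.046) and Nos2 (-1.27 ± 0.24, adjusted p = 0.024) were lower too, and their part in the H2-DMb1 value was not tested. The values of H2-DMa (-0.34 ± 0.09, adjusted p = 0.064), H2-Ab1 (-0.44 ± 0.12, adjusted p = 0.069), Cd74 (-0.42 ± 0.12, adjusted p = 0.084) and H2-M2 (-1.66 ± 0.49, adjusted p = 0.093) did not pass.

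In Mem ileum most members had values below 0 but few passed the test. Of 37 members 1 rose and 2 fell, where 8.06% of all 14959 genes were called, 5% higher and 3.06% lower. Their median was -0.51, with 28 below 0, and the median of all genes was 0.00063. H2-T3 and the pseudogene H2-K2 were lower and Mr1 was higher. For 3 members, H2-T3, H2-K2 and H2-Bl, all Mem libraries lay below WT and for 0 above, where 8.74% of all genes were apart. Without Mem replicate 1, the library that stood apart, 14 members were called, 1 higher and 13 lower, of 2396 genes in all. The count was 1 without any 1 of Mem replicates 2 to 5 or WT replicate 2.

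H2-T3 (chromosome 17, 36185572 to 36190287), the gene of TL antigen, stood at 139, 212, 163, 119 and 200 CPM in WT and 113, 49.2, 77.5, 64.1 and 70.7 CPM in Mem ileum. Every Mem library lay below every WT library, with replicate 1 the highest of Mem. The log2 fold change was -1.15 ± 0.23 (adjusted p = 0.0073), and without Mem replicate 1 it was -1.40 (adjusted p = 0.00080). The call held without any 1 of the 10 libraries. H2-K2, a transcribed class I pseudogene of which 9.4% of windows are shared, was at 18.5, 19.4, 14.7, 17.1 and 17.4 CPM in WT and 14.0, 8.58, 10.4, 10.8 and 9.33 CPM in Mem, without overlap (log2 -0.73 ± 0.18, adjusted p = 0.022). Its call was lost without any 1 of Mem replicates 2 to 5 or WT replicate 2 (adjusted p 0.0508 to 0.086) or with libraries thinned to the smallest (0.0546), and was kept without Mem replicate 1 (log2 -0.87, adjusted p = 0.0048).

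Mr1 (chromosome 1, 155127277 to 155146814) was the member that rose. It stood at 2.12, 2.07, 2.09, 2.46 and 4.63 CPM in WT and 2.95, 5.67, 7.28, 9.03 and 6.48 CPM in Mem ileum. The groups overlapped through WT replicate 5 and Mem replicate 1 (log2 1.24 ± 0.36, adjusted p = 0.042). The Mr1 call was lost without any 1 of Mem replicates 2 to 5 or WT replicates 1 to 4 (adjusted p 0.0768 to 0.15), with only the 2 genotypes compared (0.0506) or with thinned libraries (0.108), and without Mem replicate 1 the value was 1.46 (adjusted p = 0.0082).

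Further members were called in Mem ileum when replicate 1 was left out. B2m had 2001, 1436, 1722, 1246 and 1136 CPM in WT and 1519, 845, 853, 659 and 771 CPM in Mem, so that replicate 1 lay within the WT range and the others below it. Its log2 fold change went from -0.72 ± 0.24 (adjusted p = 0.081) with all libraries to -1.03 (adjusted p = 0.0032) without replicate 1. For Tap1 the change was from -0.73 ± 0.43 (adjusted p = 0.31) to -1.47 (adjusted p = 0.0064), for Tapbp from -0.60 ± 0.22 (adjusted p = 0.10) to -0.89 (adjusted p = 0.0042) and for Psmb9 from -0.55 ± 0.36 (adjusted p = 0.38) to -1.14 (adjusted p = 0.0097). Tap2 (-0.65), H2-K1 (-0.75), H2-Ab1 (-1.17), H2-Q1 (-1.12), H2-Q2 (-1.38), H2-T23 (-0.70) and H2-Bl (-1.42) made up the rest, with adjusted p between 0.011 and 0.0418. Psmb8 (-0.43 ± 0.37, adjusted p = 0.51), Nlrc5 (-0.51 ± 0.61, adjusted p = 0.66) and Cd1d1 (0.62 ± 0.30, adjusted p = 0.22) did not pass with all libraries, nor without replicate 1, where Psmb8 was at -0.94 (adjusted p = 0.0508), Nlrc5 at -1.22 (0.159) and Cd1d1 at 0.63 (0.202). H2-D1 was at -0.27 ± 0.28 (adjusted p = 0.59) with all libraries and -0.45 (0.305) without it.

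Class II genes of the ileum varied widely within each genotype. Cd74 stood at 2521, 1380, 2482, 664 and 722 CPM in WT and at 2391, 1063, 1003, 745 and 866 CPM in Mem, and in Mem+Sol it ran from 510 through a median of 889 to 1961 CPM. Ciita followed a like order in WT, with 61.4, 43.3, 101, 9.93 and 15.5 CPM, and was at 53.7, 23.4, 22.95, 21.4 and 22.1 CPM in Mem and 4.33 to 35.7 CPM in Mem+Sol. WT replicates 1 and 3 and Mem replicate 1 were high, WT replicates 4 and 5 low, and no genotype was set apart. Of the 10 class II chain and loading genes 0 were called in Mem (median -0.49) and 0 in Mem+Sol (median -0.62). For Mem the log2 values were -0.35 ± 0.43 in Cd74 (adjusted p = 0.67), -0.57 ± 0.44 in H2-Aa (0.47), -0.70 ± 0.37 in H2-Ab1 (0.25), -0.39 ± 0.37 in H2-Eb1 (0.57), -0.46 ± 0.36 in H2-DMa (0.47), -0.52 ± 0.49 in H2-DMb1 (0.55) and -0.71 ± 0.58 in Ciita (0.49), with the adjusted p in brackets. Without Mem replicate 1 they were lower by over 1.5 times, at -0.90 in Cd74 (0.129), -1.12 in H2-Aa (0.0709), -1.17 in H2-Ab1 (0.0221), -0.85 in H2-Eb1 (0.0977), -0.87 in H2-DMa (0.0894), -1.20 in H2-DMb1 (0.0663) and -1.19 in Ciita (0.191), and of these H2-Ab1 was called.

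In Mem+Sol ileum 9 of 37 members were called, 2 higher and 7 lower, where 28.7% of all genes were, 16.6% higher and 12.1% lower. The members' share of calls, 9 of 37, thus lay near the background. The median was -0.51 for members and 0.01 for all genes. Non-classical class I genes made up 7 of the 9: H2-T3, H2-Q1, H2-Q2, H2-Bl and H2-T23 fell, and Mr1 and H2-Q10 rose. B2m and H2-K2 fell too. For 1 member, Mr1, all Mem+Sol libraries lay above WT and for 6 below, where 13.5% of all genes were apart. Leaving out single libraries gave 8 to 12 called members.

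H2-T3 ran from 46.9 through a median of 59.7 to 71.1 CPM in Mem+Sol, all 6 libraries below the 119 CPM of the lowest WT library (log2 -1.50 ± 0.22, adjusted p = 0.00031). H2-Q1 (chromosome 17, 35320405 to 35325099) was at 37.4, 74.9, 59.0, 31.1 and 38.4 CPM in WT and ran from 15.4 through 18.3 to 26.3 CPM in Mem+Sol, without overlap (log2 -1.33 ± 0.28, adjusted p = 0.0028). H2-Q2 (chromosome 17, 35342242 to 35346762) was at 114, 226, 218, 101 and 159 CPM in WT and ran from 24.5 through 56.6 to 90.9 CPM, also without overlap (log2 -1.56 ± 0.35, adjusted p = 0.0041). Both are class I genes of the Q region whose roles are little known. H2-Bl, annotated as a polymorphic pseudogene, was at 10.5, 31.9, 12.4, 9.50 and 13.8 CPM in WT and ran from 1.68 through 4.45 to 7.39 CPM (log2 -1.80 ± 0.39, adjusted p = 0.0033). These 4 calls held without any 1 of the 11 libraries.

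B2m ran from 541 through 854 to 1067 CPM in Mem+Sol, below the lowest WT library of 1136 CPM (log2 -0.91 ± 0.24, adjusted p = 0.01), and its call was lost without WT replicate 1 (log2 -0.79, adjusted p = 0.0519). H2-T23, which encodes Qa-1, a ligand of the Klrd1 receptor of cytotoxic cells, was at 255, 208, 273, 167 and 234 CPM in WT and ran from 105.7 through 173 to 202 CPM (log2 -0.62 ± 0.19, adjusted p = 0.022). The groups overlapped, and the call was lost without Mem+Sol replicate 1 or 6 or WT replicate 3 (adjusted p 0.0509 to 0.0701) and with no sex term (0.0529). H2-K2 ran from 8.01 through 9.88 to 13.9 CPM, below every WT library (log2 -0.81 ± 0.18, adjusted p = 0.0035). Summed over all H2-T genes the log2 fold change was -0.90 ± 0.18 (adjusted p = 0.0023), and over all H2-Q genes it was -0.98 ± 0.28 (adjusted p = 0.016). These sums do not bear on single genes or on reads shared with genes outside them.

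Mr1 ran from 4.98 through 6.83 to 13.5 CPM in Mem+Sol ileum, above the 4.63 CPM of the highest WT library (log2 1.51 ± 0.35, adjusted p = 0.0046). H2-Q10, which encodes a secreted class I molecule, was at 6.66, 9.33, 4.69, 5.34 and 4.18 CPM in WT and ran from 6.07 through 16.7 to 22.6 CPM in Mem+Sol (log2 1.35 ± 0.30, adjusted p = 0.0036). Only Mem+Sol replicate 1 of H2-Q10 lay within the WT range. Both calls held without any 1 of the 11 libraries. Of H2-Q10 windows 19.1% were shared with other genes.

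**Figure D4:**
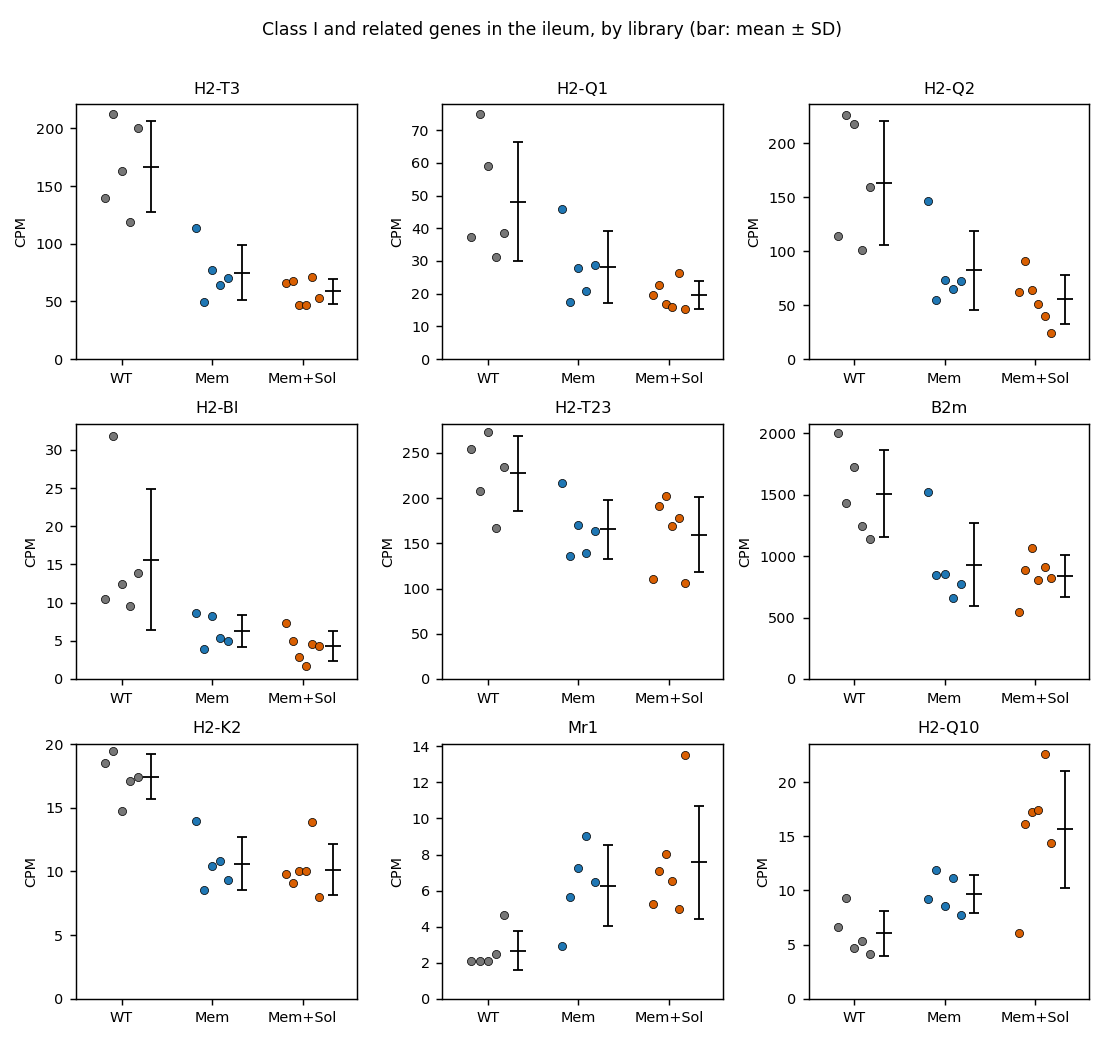
Levels in CPM (vertical axis, from 0) of 9 class I and related genes in each ileum library, by genotype, with bars for the mean ± SD. H2-T3 and H2-K2 in both transgenic groups lie below all WT libraries, Mr1 in Mem+Sol lies above them, and Mem replicate 1, drawn first in its group, is high for most genes.

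The remaining members given in every case did not pass in Mem+Sol ileum. H2-K1 stood at 1625 ± 328 CPM in WT and 1192 ± 254 CPM in Mem+Sol (log2 -0.51 ± 0.22, adjusted p = 0.097), and H2-D1 at 400.4 ± 108 and 420.5 ± 148.5 CPM (log2 0.01 ± 0.27, adjusted p = 0.98). The coactivators gave -1.53 ± 0.60 for Ciita (adjusted p = 0.064) and -1.26 ± 0.64 for Nlrc5 (adjusted p = 0.14). The loading genes Tap1 (-0.94 ± 0.43), Tap2 (-0.18 ± 0.24), Tapbp (-0.51 ± 0.21), Psmb8 (-0.61 ± 0.37) and Psmb9 (-0.58 ± 0.37) had adjusted p from 0.082 to 0.59. Class II values were -0.91 ± 0.45 for H2-Aa (adjusted p = 0.13), -0.76 ± 0.36 for H2-Ab1 (0.12), -0.59 ± 0.38 for H2-Eb1 (0.25), -0.66 ± 0.44 for Cd74 (0.27), -0.77 ± 0.36 for H2-DMa (0.12) and -0.97 ± 0.49 for H2-DMb1 (0.15), and Cd1d1 was at 0.52 ± 0.29 (0.19), with the adjusted p in brackets.

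Between Mem+Sol and Mem ileum 0 of 37 members were called by edgeR or by DESeq2, where 0.0134% of all genes were called by edgeR. For 0 members were the groups apart, where 0.909% of all genes were. At an unadjusted p under 0.05 there was 1 member, H2-Q10 (log2 0.65 ± 0.28, adjusted p = 0.40).

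The companion lists in the ileum gave 4 of 15 genes induced by interferon gamma lower in Mem+Sol, Ubd (log2 -5.001 ± 1.38), Nos2 (-4.21 ± 1.14), Cxcl9 (-1.97 ± 0.60) and Ido1 (-1.94 ± 0.62), and 0 of 15 called in Mem. Of the 6 costimulatory genes 3 rose and 1 fell in Mem+Sol and 1 rose in Mem, Cd80 (2.26 ± 0.64). Of 6 tested genes of class II processing 1 rose in each genotype, the protease Ctsl (1.11 ± 0.31 in Mem and 1.82 ± 0.31 in Mem+Sol). In Mem+Sol 1 of 10 class I processing genes fell, the chaperone Canx (-0.93 ± 0.27), and 1 of 16 tested regulators, the receptor chain Ifngr1 (-0.70 ± 0.18), and in Mem 0 of either. Ifng was at 0.210 ± 0.329 CPM in WT, 0.177 ± 0.235 in Mem and 0.0954 ± 0.129 in Mem+Sol ileum.

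Markers of the cells in the ileum pieces differed between the genotypes. All 4 tested cytotoxic markers fell in both transgenic groups, with sums of 37.8 to 164 CPM in WT, 10.3 to 31.8 in Mem and 6.80 to 39.4 in Mem+Sol. Of 6 tested T cell markers 1 fell in Mem and 2 in Mem+Sol, among them Cd8a in each (-2.32 ± 0.43 and -3.13 ± 0.42), and of 6 enterocyte markers 1 and 3 fell, with sums of 8830 to 25670 CPM in WT and 6332 to 9779 and 4576 to 11630 CPM. Of 5 smooth muscle markers 3 and 5 rose, with sums of 1866 to 4153 CPM in WT, 6408 to 11480 CPM in Mem and 9574 to 45610 CPM in Mem+Sol, and of 5 endothelial markers 3 rose in each. Of 8 macrophage markers Mertk fell in Mem and Mem+Sol (-1.13 ± 0.33 and -1.77 ± 0.32), and Adgre1 (0.91 ± 0.28) and Cd68 (0.90 ± 0.23) rose in Mem+Sol, with sums of 258 to 436 CPM in WT, 278.5 to 407 in Mem and 273 to 538.5 in Mem+Sol. Of 8 dendritic cell markers Batf3 rose in both (1.18 ± 0.34 and 1.57 ± 0.35), with sums of 21.1 to 39.8, 27.3 to 41.7 and 21.95 to 74.5 CPM. Of 6 general epithelial markers Krt18 rose (0.84 ± 0.24 and 1.33 ± 0.24) and Cldn7 fell (-0.80 ± 0.24 and -0.89 ± 0.23) in both. The part of these differences in cell content in the lower levels of H2-T3, H2-Q1, H2-Q2, H2-Bl, H2-T23 and B2m and the higher level of Mr1 was not tested. Of the 6 tested B cell markers 0 were called, with sums of 9.18 to 22.02 CPM in WT, 12.2 to 22.1 in Mem and 9.97 to 34.5 in Mem+Sol.

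Whether genotype effects differed between the tissues was tested in 1 joint model, as the lung effect minus the ileum effect on the log2 scale. For Mem 8 of 39 members were called, 6 higher in the lung and 2 lower, where 8.23% of all 16867 genes were called, 3.56% higher and 4.67% lower. The median difference was 0.77 for members and -0.02 for all genes. H2-M2 differed most, by 5.38 ± 0.85 (adjusted p = 0.00041). Its ileum levels were 2.32, 1.04, 2.35, 5.45 and 5.09 CPM in WT and 2.06, 1.99, 0.861, 0.782 and 1.30 CPM in Mem, so that it rose in the lung while its ileum value was -1.38 ± 0.61 (adjusted p = 0.18). The H2-M2 difference was called without any 1 of the 20 libraries.

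Other members with a more positive effect in Mem lung were H2-Ab1 (difference 1.71 ± 0.43, adjusted p = 0.014), B2m (1.11 ± 0.29, adjusted p = 0.019), H2-K1 (1.00 ± 0.27, adjusted p = 0.02), H2-K2 (0.87 ± 0.23, adjusted p = 0.02) and H2-T23 (0.77 ± 0.23, adjusted p = 0.037). Mr1 (-1.35 ± 0.37, adjusted p = 0.024) and H2-Q10 (-1.29 ± 0.40, adjusted p = 0.045) had the more negative effect there. H2-Ab1, B2m and H2-K1 held without any 1 of 20 libraries. H2-K2 was lost without lung Mem replicate 3 or lung WT replicate 5, and Mr1 without ileum Mem replicate 4 or lung Mem replicate 3 (adjusted p 0.0524 to 0.0697), and H2-T23 and H2-Q10 were each lost under 13 of the 20 omissions (adjusted p up to 0.086 and 0.132). Without ileum Mem replicate 1 the count was 21, with 19 higher, and it was 5 without ileum Mem replicate 4, lung Mem replicate 3 or lung WT replicate 5. Calls among all genes under these omissions are not given here, so these counts do not set members apart from other genes. The 10 class II genes all had a difference above 0 (median 1.25). Without ileum Mem replicate 1 Cd74 (1.26 ± 0.50, adjusted p = 0.12) went to 1.82 (adjusted p = 0.0050). Under the same omission H2-Aa (1.47 ± 0.51, adjusted p = 0.075) went to 2.03 (adjusted p = 0.0027).

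For Mem+Sol 11 of 39 members differed between the tissues, 8 higher in the lung and 3 lower, where 18.1% of all genes did, 6.55% higher and 11.6% lower. The effect was more positive in the lung for H2-M2 (2.75 ± 0.87, adjusted p = 0.029), H2-Bl (2.15 ± 0.72, adjusted p = 0.038), H2-Q2 (1.68 ± 0.44, adjusted p = 0.0096), H2-Q1 (1.53 ± 0.40, adjusted p = 0.009), H2-Ab1 (1.34 ± 0.44, adjusted p = 0.035), B2m (1.16 ± 0.30, adjusted p = 0.0093), H2-K2 (1.018 ± 0.24, adjusted p = 0.0044) and H2-T23 (0.86 ± 0.24, adjusted p = 0.013). It was more negative for H2-Q10 (-1.87 ± 0.42, adjusted p = 0.0034), Mr1 (-1.48 ± 0.38, adjusted p = 0.0082) and H2-M5 (-1.60 ± 0.55, adjusted p = 0.041). H2-Bl stood at only 0.0993 to 0.381 CPM in the lung, below the filter there, and H2-M5, with 89 counts over the 16 ileum libraries, was below the filter of the ileum, so that each difference rests in part on very few counts. H2-Q1, H2-Q2, H2-Q10, B2m, H2-K2, H2-T23 and Mr1 held without any 1 of the 20 libraries, whereas H2-M2, H2-Bl, H2-Ab1 and H2-M5 were lost in 6, 7, 10 and 13 of the omissions (adjusted p up to 0.174, 0.119, 0.108 and 0.176). The count was 7 without ileum Mem+Sol replicate 6 or lung WT replicate 2. Each tissue's own WT libraries serve both genotypes, so the Mem and Mem+Sol differences are not independent of each other.

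**Figure D5:**
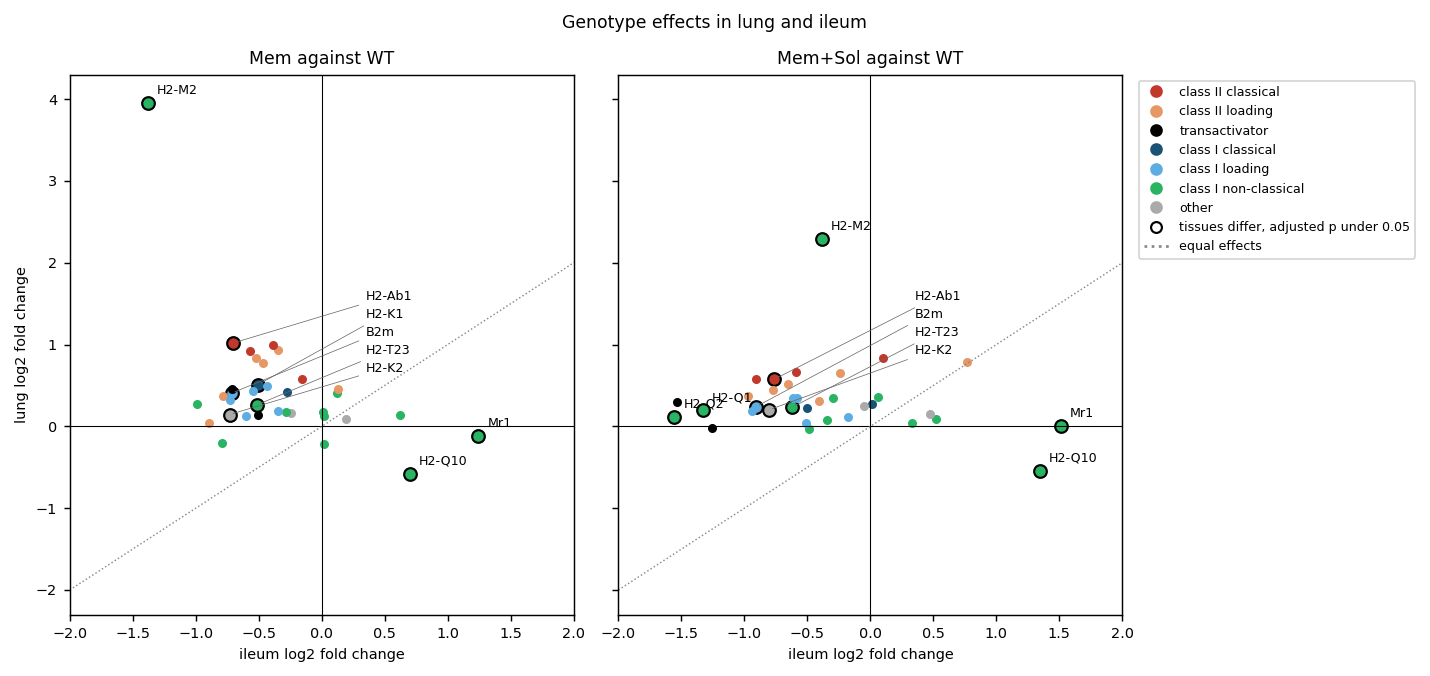
Log2 fold change against WT in the ileum (horizontal axis) and lung (vertical axis) for the 35 members tested in both tissues, Mem on the left and Mem+Sol on the right. Ringed and named members differed between the tissues in the joint model, and the dotted line marks equal effects. Most members lie in the upper left, above 0 in the lung and below 0 in the ileum, and Mr1 and H2-Q10 lie at the lower right.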

How the data were processed

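The counts per gene symbol deposited by the authors were used as they stand, 1 table for the 16 ileum and 1 for the 14 lung libraries. CASAVA, TopHat2 and mm10 are named, without versions, per the submitters' processing notes. No counting tool, annotation or strand setting is given in those sources, so overlapping genes and close paralogs may share reads. Per the labels' protocols, RNA came from the post-caval lobe or a piece of terminal ileum and was selected for poly-A.

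Counts were filtered with filterByExpr, scaled by TMM and fitted in edgeR 4.0.16 under R 4.3.3, using the robust quasi-likelihood F-test with Benjamini-Hochberg adjustment over all genes tested and a threshold of 0.05. The ileum model held genotype and sex, the lung model also sequencing batch, leaving 12 and 9 residual degrees of freedom. A joint model (21) tested the tissue difference. CPM divide the deposited counts by the TMM-scaled total, and RPKM divide CPM by the exon length of GENCODE M21. The script was tested on simulated data. No 2 libraries of a group were alike within sampling noise. Replicate numbers were not taken as pairs in the main fits. Correlations of same-numbered libraries ran from -0.35 to 0.552 in the ileum and -0.317 to 0.354 in the lung. Above the limit set for this check lay 8 of 15 in the ileum and 5 of 13 in the lung. These values of both signs do not settle whether the libraries were paired, and the replicate number was fitted as a block among the alternatives.

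The members, the companion and marker lists and the rule for named genes were chosen with earlier results of these data known. Named in every case were 18 central members and H2-Ea-ps, then each member called in a comparison of genotypes. Companion lists gave up to 4 called genes by adjusted p, and examples from marker lists were chosen after their values were seen. Of the listed symbols 3 were not matched in the ileum. Alternatives were relative log expression scaling, no filter, no sex term, the replicate number as a block, summed paralogs, DESeq2 1.42.0, only the 2 genotypes compared, thinned ileum libraries, no batch term or 1 batch alone in the lung, and each library left out.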

Additional observations from a re-analysis of the deposited data

Results flagged for a closer look

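In 23 of 156 groups of 4 to 6 libraries, over the 27 named members, 1 library stood further from the rest than Dixon's 95% limit allows. Chance flags about 1 in 20 independent groups. The 156 groups reuse the same libraries for each member and are not independent, so the 2 shares cannot be compared as a test. Of the 23, 16 were ileum Mem replicate 1, high each time. The values in CPM were 1519 for B2m, 2391 for Cd74, 53.65 for Ciita, 727.6 for H2-Aa, 905.1 for H2-Ab1, 102.7 for H2-DMa, 110.3 for H2-DMb1 and 683.5 for H2-Eb1. They were 1723 for H2-K1, 146.8 for H2-Q2, 35.18 for Nlrc5, 191.5 for Psmb8, 99.94 for Psmb9, 167.3 for Tap1, 125.4 for Tap2 and 663.6 for Tapbp. The next highest Mem library had 48.1 CPM for Tap1 and 1063 CPM for Cd74. Also high were H2-Bl in ileum WT replicate 2 (31.86 CPM), the smallest library, Mr1 in ileum WT replicate 5 (4.63) and in ileum Mem+Sol replicate 6 (13.53), and H2-K2 in ileum Mem+Sol replicate 5 (13.87). In the lung H2-Q1 was high in WT replicate 3 (2.924 CPM), Psmb9 high in Mem+Sol replicate 1 (82.69) and H2-K2 low in Mem+Sol replicate 2 (12.51).

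The genotype effect differed between lung and ileum by the joint model for 19 pairs of member and genotype. For Mem the lung minus ileum differences (log2) were 5.379 for H2-M2, 1.705 for H2-Ab1, 1.111 for B2m, 1.005 for H2-K1, 0.872 for H2-K2, 0.7676 for H2-T23, -1.287 for H2-Q10 and -1.351 for Mr1. For Mem+Sol they were 2.75 for H2-M2, 2.154 for H2-Bl, 1.68 for H2-Q2, 1.53 for H2-Q1, 1.343 for H2-Ab1, 1.157 for B2m, 1.018 for H2-K2, 0.8626 for H2-T23, -1.477 for Mr1, -1.602 for H2-M5 and -1.874 for H2-Q10.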

How the results depend on the processing

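No member changed direction with a call under the alternatives run. Calls among all genes are not given beside the counts below, so these counts do not set members apart from other genes. The number of called members moved by over 1.5 times as follows. In Mem ileum (3) it was 6 with DESeq2 and 1 with ileum libraries thinned to the smallest, and in Mem+Sol ileum (9) it was 14 with only the 2 genotypes compared. In Mem lung (12) it was 7 with no batch term and 0 in batch 2 alone. In Mem+Sol lung (5) it was 0 with the replicate number as a block, 11 with DESeq2, 3 with only the 2 genotypes, 0 with no batch term and 0 in batch 1 alone, while the 4 called in batch 2 alone were none of the 5. Between the transgenic genotypes in the lung (1) it was 0 with no sex term, 2 with the replicate block, 4 with DESeq2, 0 with only the 2 genotypes, 0 with no batch term, 0 in batch 1 alone and 3 in batch 2 alone. For the tissue difference of Mem+Sol (11) it was 5 with the replicate block. The block also ended the calls of H2-T23 in Mem+Sol ileum (adjusted p = 0.143) and of Ciita (0.0622) and H2-D1 (0.0609) in Mem lung. Where samples were dropped the fits had fewer libraries, and for the other alternatives the cause was not tested. Leaving out each library gave 1 to 14 members in Mem ileum, 8 to 12 in Mem+Sol ileum, 0 to 0 between the transgenic genotypes in the ileum, 9 to 14 in Mem lung, 0 to 8 in Mem+Sol lung, 0 to 3 between the transgenic genotypes in the lung, 5 to 21 for the tissue difference of Mem and 7 to 16 for that of Mem+Sol. Ileum libraries of a group varied more (coefficient of variation 0.308) than lung libraries did (0.13), and the shallow WT ileum libraries limit members of a few counts.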
